A study of Homo sapiens with 5 samples.

Results

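Aminoacyl-tRNA synthetases are the enzymes that join each amino acid to its transfer RNA. Human cells carry a cytosolic set and a mitochondrial set, most of them encoded by separate nuclear genes, and 3 small proteins (AIMP1, AIMP2 and EEF1E1) hold several of the cytosolic enzymes together in the multisynthetase complex. The genes described here were chosen by symbol from a list of 38, of which 19 encode cytosolic enzymes or enzyme subunits, 16 mitochondrial enzymes (symbols ending in 2) and 3 the scaffold proteins. Of these 38 genes, 35 had a named probe among 9268 named genes, namely 18 cytosolic, all 16 mitochondrial and 1 scaffold gene. Expression of CARS1, AIMP2 and EEF1E1 was not analysed here, and these genes enter only the counts of promoter motifs.

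The values come from LX-2, a human hepatic stellate cell line, transfected with biotin-tagged miR-25-3p duplex at 50 pmol. By the methods of the study all 5 samples came from cells that had received this duplex and were lysed after 24 hours. RNA captured on streptavidin beads (pull-down, 3 arrays) was compared with RNA of the whole lysate (2 arrays, titled Control). The extraction text given with the Control samples repeats the bead steps, so that only the design text of the series and the methods make them whole lysate. By the methods, part of each lysate was kept as the control and the rest went to the beads, so that a lysate and a pull-down can share their cells. The labels give both groups the replicate numbers 1 and 2 but do not say that equal numbers mark the same cells. No sample held a pull-down with another duplex or with beads alone, so capture by miR-25-3p and other binding to the beads cannot be told apart. Probes for 9 of 10 stellate or mesenchymal markers were measured, with 7 of them above the median level of all genes, on a scale from 7.57 to 14.76. Of 6 hepatocyte genes listed, ALB and SERPINA1 were measured, at 7.79 to 9.23, and of 4 immune genes CD14 and CD68, at 7.99 to 12.25, with 1 of them above the median level of all genes.

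Charging proceeds in a pair of chemical steps, activation of the amino acid with ATP and its transfer to the tRNA. The enzymes fall into class I and class II by the fold of their catalytic domain. A shortage of charged tRNA is sensed by the kinase GCN2, and many cytosolic synthetase genes are known targets of the transcription factor ATF4, which acts in the resulting amino acid response. Mitochondrial enzymes charge the tRNAs used to translate the few proteins encoded in mitochondrial DNA. GARS1 and KARS1 each encode both a cytosolic and a mitochondrial form and were counted as cytosolic here.

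The sequence of miR-25-3p is shown because its duplex was the bait of the experiment. It is given as the mature miRNA of RefSeq (GRCh38.p14, chr7:100093571-100093592, minus strand), with the seed, bases 2 to 8, in capitals.
hsa-miR-25-3p: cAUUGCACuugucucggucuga

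Pull-down replicate 1 stood somewhat apart from the others. Across all probes it correlated with pull-down replicates 2 and 3 at 0.9632 and 0.9625, against 0.9854 between those arrays, 0.9802 between the lysate arrays and 0.9016 to 0.9511 across groups. Among the 35 synthetase genes, 10 had a pull-down array more than 0.3 from the pull-down median on the log2 scale, and that array was replicate 1 for 8 of them, replicate 2 for 1 and replicate 3 for 1. All values below are normalized expression values on a log2 or log2-like scale, with array medians between 9.01 and 9.03. Higher and lower are therefore relative within an array and give no amount of an mRNA captured. Each difference is the pull-down mean minus the lysate mean, and the titles of the samples give the groups. On these values ADAM17 (log2 fold change -0.65) and FKBP14 (-2.03) were lower in the pull-down. The study followed both as genes enriched by it, so the direction here opposes that of the study. The study left out a control array, and the titles have 1 Control fewer than pull-downs. The legend of its volcano plot sets a negative limit for pull-down against lysate. Its results and methods instead give a positive fold limit of 2 for enriched targets. Whether exchanged labels or a reversed contrast lie behind the opposite direction was not tested. Higher and lower below follow the titles, and would change places if the labels were exchanged.

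Of the 35 synthetase genes, limma called 3 lower and 1 higher in the pull-down with p adjusted across every probe and a threshold of 0.05. The 3 lower genes, WARS1, GARS1 and HARS1, all encode cytosolic enzymes, and the 1 higher gene, YARS2, encodes a mitochondrial enzyme. Over all named genes, 6.72% were called lower and 7.1% higher, against 8.57% and 2.86% of the synthetase genes. With 35 genes, these shares stand for 3 genes and 1 gene, and the counts for the whole family were near the background. The median log2 fold change was -0.22 (1.16-fold lower) over the 18 cytosolic genes and 0.12 (1.08-fold higher) over the 16 mitochondrial genes, and it was 0.04 over all named genes. Point estimates lay below the median of all genes for 15 of 18 cytosolic and 6 of 16 mitochondrial genes. Because the list was chosen with results known, no test was attached to these counts and medians.

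**Figure D1:**
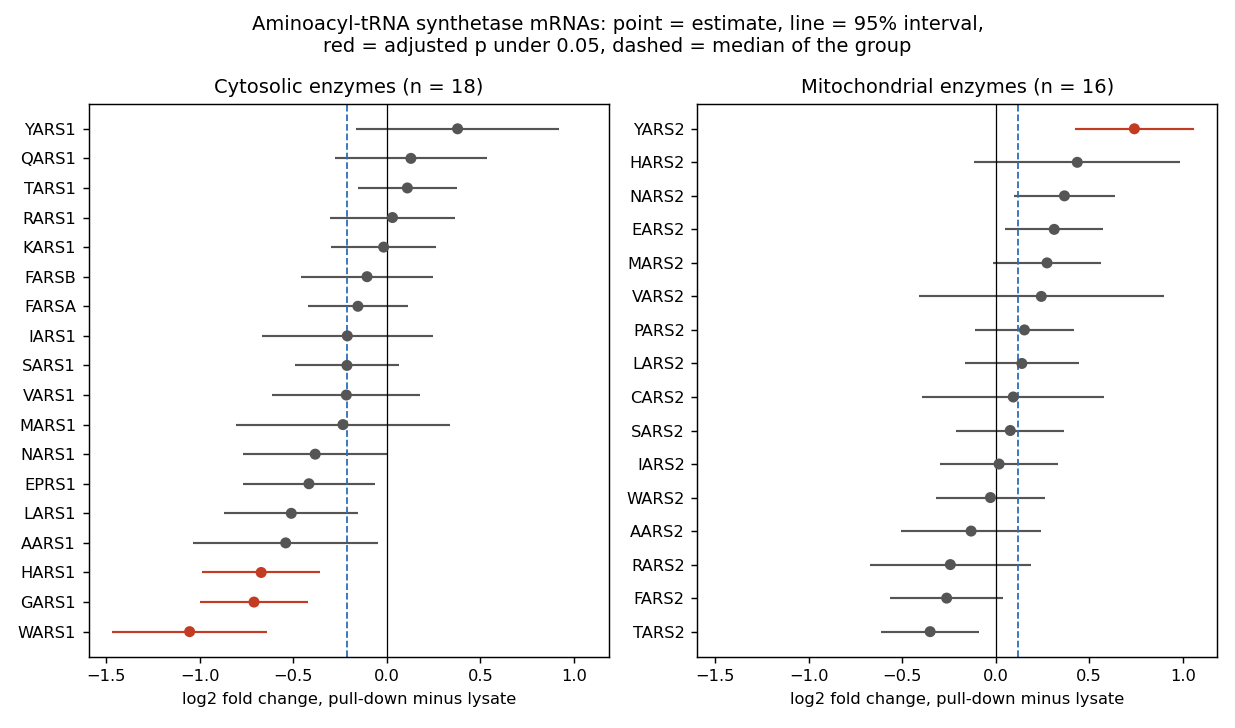
Log2 fold change of each synthetase gene (x axis, pull-down minus lysate) with its 95% confidence interval from limma, for 18 cytosolic genes (left) and 16 mitochondrial genes (right); AIMP1 is not drawn. Red marks the genes called at an adjusted p under 0.05, and the dashed lines mark the medians of -0.22 and 0.12.

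WARS1 encodes the cytosolic tryptophanyl-tRNA synthetase, an enzyme that is induced by interferon. Its brighter probe measured 10.41, 10.37 and 10.30 in pull-downs 1, 2 and 3, against 11.65 and 11.17 in lysates 1 and 2, the order kept below. All pull-down arrays were below both lysate arrays, which differed more from each other than the pull-down arrays did. This was 2.08-fold lower (log2 fold change -1.05 ± 0.17 SE, adjusted p = 0.0186 in limma) and the only synthetase gene with a change of at least 2-fold. WARS1 was also the only one with a second probe, which measured 9.65, 9.85 and 9.60 in the pull-down and 10.81 and 10.41 in the lysate. That probe was lower as well (log2 fold change -0.91 ± 0.17 SE, adjusted p = 0.0235 in limma).

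GARS1 encodes glycyl-tRNA synthetase, in which inherited variants cause a form of Charcot-Marie-Tooth neuropathy. It measured 11.28, 11.45 and 11.46 in the pull-down and 12.07 and 12.15 in the lysate. The groups did not overlap, and GARS1 was 1.64-fold lower (log2 fold change -0.71 ± 0.12 SE, adjusted p = 0.0197 in limma). HARS1 encodes cytosolic histidyl-tRNA synthetase, known to clinicians as the Jo-1 autoantigen of myositis. It measured 10.41, 10.20 and 10.41 in the pull-down and 10.94 and 11.08 in the lysate, again without overlap. It was 1.59-fold lower (log2 fold change -0.67 ± 0.13 SE, adjusted p = 0.0264 in limma).

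YARS2 encodes the mitochondrial tyrosyl-tRNA synthetase. It measured 9.82, 9.93 and 9.65 in the pull-down and 9.11 and 9.01 in the lysate. Every pull-down array lay above both lysate arrays, and the log2 fold change was 0.74 (SE 0.13, adjusted p = 0.0216 in limma). All 4 calls rested on few arrays. They were kept without pull-down replicate 1. Leaving out pull-down replicate 2 or either of the lysates, limma called 0 synthetase genes, and without pull-down replicate 3 it called YARS2 alone. With the replicate number as a block it also called 0, with adjusted p-values of 0.0892 (WARS1), 0.104 (YARS2), 0.112 (GARS1) and 0.137 (HARS1). Replicate number 3 occurs only in the pull-down, so the block takes up that array. The block estimates therefore equal those without pull-down replicate 3, with fewer residual degrees of freedom than the main fit. At an unadjusted p under 0.05 in limma, 7 of 35 synthetase genes were lower and 3 higher on all 5 arrays. Of 9268 named genes, 1307 were lower and 1525 higher at that threshold. The log2 fold changes of the 4 called genes held their direction in every setting. Leaving out each array in turn, they ranged from -1.29 to -0.82 for WARS1, -0.75 to -0.65 for GARS1, -0.74 to -0.60 for HARS1 and 0.68 to 0.81 for YARS2. Cyclic loess gave -0.84 for GARS1, outside its range.

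**Figure D2:**
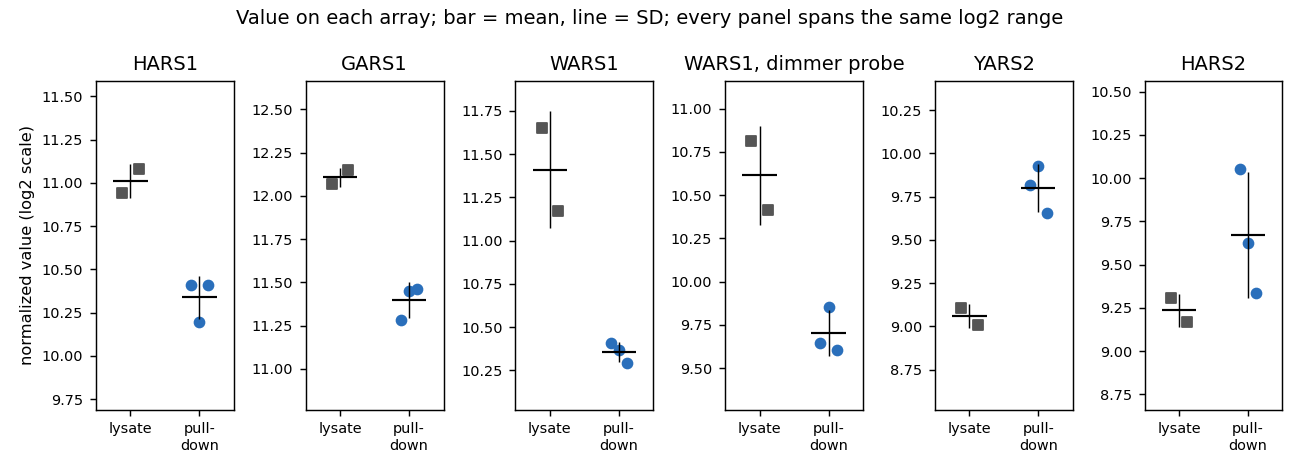
Normalized value (y axis, log2 scale) on each lysate array (squares, n = 2) and pull-down array (circles, n = 3) for the 4 synthetase genes that were called, with both probes of WARS1, and for HARS2, which was not called. Bars give the mean and vertical lines the SD; the groups do not overlap in any panel, and HARS2 shows the wider spread of the pull-down arrays (9.33 to 10.05).

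Among the other cytosolic enzymes, 4 genes lay between -0.38 and -0.54 with non-overlapping groups but did not pass the test. They were AARS1 for alanine (log2 fold change -0.54, adjusted p = 0.128 in limma), LARS1 for leucine (-0.51, adjusted p = 0.0693 in limma), EPRS1 for glutamate and proline (-0.42, adjusted p = 0.108 in limma) and NARS1 for asparagine (-0.38, adjusted p = 0.161 in limma). The LARS1 protein also acts as a leucine sensor in mTORC1 signaling, and EPRS1 joins a class I and a class II enzyme in a single chain. In all, 9 of the 18 cytosolic genes had every pull-down array below every lysate array and 2 had every one above, which is 50.0% and 11.1%. Over all named genes these shares were 21.4% and 27.8%. IARS1, MARS1 and VARS1 measured -0.21 to -0.24 with overlapping groups, as did FARSB at -0.11, whose values of 14.14 to 14.50 lie near the highest value on any array (14.76). SARS1 (-0.21) and FARSA (-0.16), the latter encoding the catalytic subunit of the phenylalanine enzyme, had groups that did not overlap and did not pass the test either.

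The highest cytosolic estimates were those of YARS1, QARS1 and TARS1, and none of these 3 passed the test. YARS1, for tyrosine, measured 11.90, 11.33 and 11.24 in the pull-down and 11.14 and 11.09 in the lysate (log2 fold change 0.38, 95% interval -0.16 to 0.92, adjusted p = 0.299 in limma). QARS1, for glutamine, measured 11.72, 11.34 and 11.29 against 11.28 and 11.36 (0.13, adjusted p = 0.636 in limma). Pull-down replicate 1 was the highest array for both genes, and without it they measured 0.17 and -0.01. TARS1, for threonine, measured 12.51, 12.40 and 12.43 against 12.35 and 12.32 (0.11, adjusted p = 0.531 in limma, and 0.00 after cyclic loess scaling). RARS1 (0.03, and -0.08 after cyclic loess) and KARS1 (-0.02) had intervals of -0.31 to 0.36 and -0.30 to 0.26.

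The cytosolic genes were also read by complex and by class. The 7 enzymes of the multisynthetase complex that were measured (EPRS1, IARS1, KARS1, LARS1, MARS1, QARS1 and RARS1) had a median log2 fold change of -0.21, and the 11 genes outside the complex one of -0.22. The 3 genes called lower were all outside the complex (27.3% of 11, beside 6.72% of all named genes). Of those 11, 7 had groups that did not overlap in the lower direction, against 2 of 7 in the complex. These shares are 63.6% and 28.6%, beside 21.4% of all named genes. In the higher direction the counts were 2 of 11 and 0 of 7, beside 27.8% of all named genes. The difference between these counts was not tested. The genes outside the complex also had the brighter probes, with a median level of 11.23 against 10.24 in the complex and 9.19 over all named genes. The part of signal in these counts was not tested either. By class the medians were -0.21 for 8 class I genes and -0.21 for 9 class II genes. AIMP1, the scaffold protein that is also released as the cytokine precursor of EMAP II, measured 7.91, 7.82 and 7.78 in the pull-down and 7.69 and 7.68 in the lysate (0.15, adjusted p = 0.4 in limma). These values are close to the lowest on any array.

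Mitochondrial enzymes were spread on both sides of 0. Behind YARS2, the highest estimate was that of HARS2, for histidine, which measured 10.05, 9.63 and 9.33 in the pull-down and 9.30 and 9.17 in the lysate. The groups did not overlap, but pull-down replicate 3 lay next to lysate replicate 1 and the gene did not pass the test (log2 fold change 0.44, 95% interval -0.12 to 0.99, adjusted p = 0.245 in limma). Its estimate without pull-down replicate 1 was 0.245. NARS2, for asparagine, was tighter, at 9.48, 9.56 and 9.48 against 9.20 and 9.08 (0.37, 95% interval 0.10 to 0.64, adjusted p = 0.0783 in limma). EARS2, which charges the mitochondrial glutamate tRNA, had a log2 fold change of 0.31 (adjusted p = 0.107 in limma) and MARS2, for methionine, one of 0.27 (adjusted p = 0.176 in limma), both without overlap of the groups. VARS2 (0.24) rested on pull-down replicate 1, at 9.14 against 8.42 and 8.31 on the other pull-down arrays, and measured -0.02 without it.

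At the low end stood TARS2, FARS2 and RARS2, none of which passed the test. TARS2, for threonine, measured 8.06, 7.98 and 8.06 in the pull-down and 8.41 and 8.35 in the lysate, without overlap (log2 fold change -0.35, 95% interval -0.61 to -0.09, adjusted p = 0.0818 in limma). It was called with an intensity trend and a robust prior in limma (adjusted p = 0.0377). FARS2, for phenylalanine, measured 8.85, 8.84 and 8.64 against 9.08 and 9.0 (-0.26, adjusted p = 0.208 in limma). RARS2, for arginine, measured 10.29, 9.84 and 9.84 against 10.28 and 10.18 (-0.24, adjusted p = 0.396 in limma), with pull-down replicate 1 beside lysate replicate 1. The remaining 7 genes (PARS2, LARS2, CARS2, SARS2, IARS2, WARS2 and AARS2) lay between -0.13 and 0.15, with IARS2 at 0.02 and -0.03 after cyclic loess. Of the 16 genes, 6 were separated upward and 2 downward (37.5% and 12.5%), against 27.8% and 21.4% of all named genes. The median of 0.12 was 0.02 without pull-down replicate 1.

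**Figure D3:**
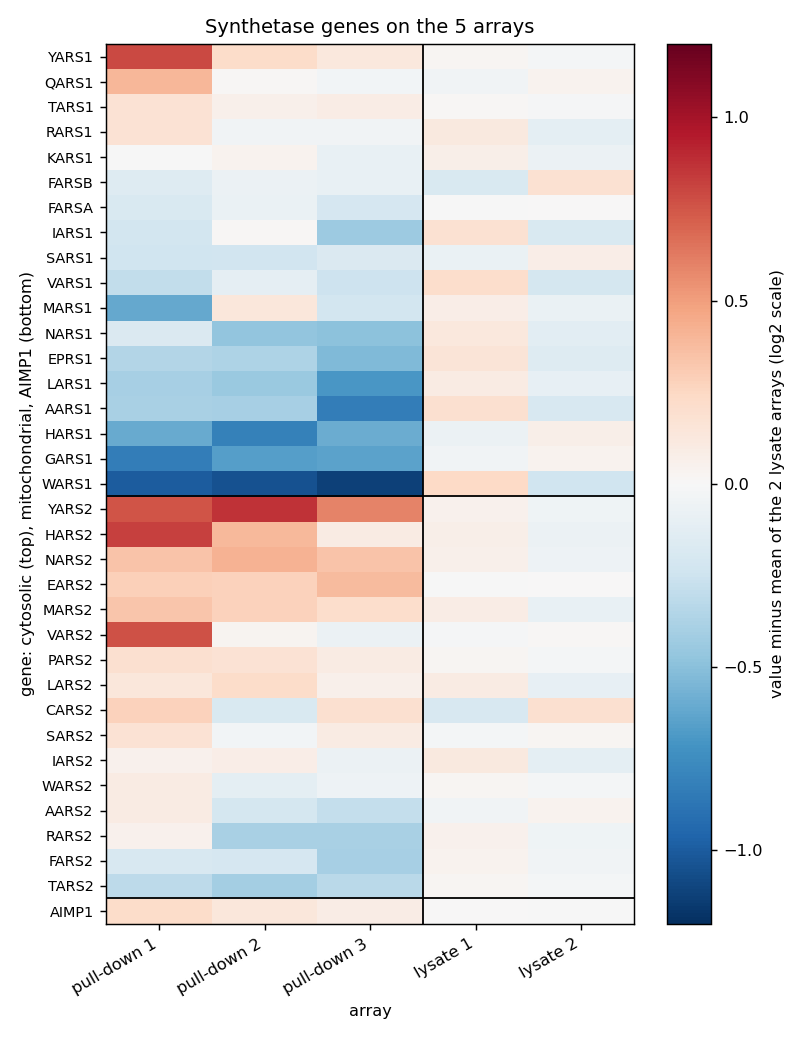
Value of each synthetase gene on each of the 5 arrays minus its mean over the 2 lysate arrays (colour, log2 scale; red higher, blue lower), with cytosolic genes above, mitochondrial genes in the middle and AIMP1 at the bottom, each block sorted by fold change. WARS1, GARS1 and HARS1 are blue on all 3 pull-down arrays, YARS2 is red on all 3, and YARS1, QARS1, HARS2 and VARS2 are reddest on pull-down replicate 1.

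On single arrays, the median of the 18 cytosolic genes relative to the mean of the lysate arrays was -0.23, -0.09 and -0.24 for pull-down replicates 1, 2 and 3, and 0.07 and -0.07 for lysate replicates 1 and 2. Pull-down replicate 2 was thus near lysate replicate 2, and the median of the cytosolic fold changes was -0.35 without that lysate. For the 16 mitochondrial genes the same medians were 0.18, 0.06 and 0.08 in the pull-down and 0.035 and -0.035 in the lysate. The probes of the sets also differed in signal: when all probes were divided by mean signal into 4 bins of equal size, 13 of 18 cytosolic probes were in the brightest bin, while 11 of 16 mitochondrial probes were in the 2 dimmest. Over all named genes the median log2 fold change was 0.06, 0.03, 0.03 and 0.02 from the dimmest to the brightest bin, and the share called lower went from 0.785% to 10.7% and that called higher from 0.68% to 13.5%. Within the third bin, which held 4 genes of each set, the medians were -0.22 for the cytosolic and 0.40 for the mitochondrial genes. The part of signal in the difference between the sets was not tested beyond these values.

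For 13 amino acids both the cytosolic and the mitochondrial enzyme were measured, giving 14 pairs because the cytosolic phenylalanine enzyme has the subunits FARSA and FARSB. The mitochondrial gene had the higher log2 fold change in 10 pairs and the lower in 4, with a median difference of 0.39. The widest differences were those for histidine (1.11), tryptophan (1.03), asparagine (0.75) and leucine (0.65). Without pull-down replicate 1 tryptophan (0.99) ranked before histidine (0.95), and the mitochondrial gene stayed the higher for both amino acids. The reverse order was found for threonine (-0.46), arginine (-0.27) and phenylalanine (-0.16 against FARSB and -0.11 against FARSA). When the mitochondrial value minus the cytosolic value was taken on each array, so that a shift of a whole array cancels, the pull-down arrays lay above both lysate arrays in 6 pairs, below both in 2, and overlapped them in 6. As single genes, 27.8% of all named genes were separated upward and 21.4% downward. The share for other pairs of genes was not computed, so these counts cannot be set against a background. FARS2 enters both phenylalanine pairs. An exact two-sided permutation test of 3 against 2 arrays cannot give a p below 0.1, and no test was run on single pairs.

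**Figure D4:**
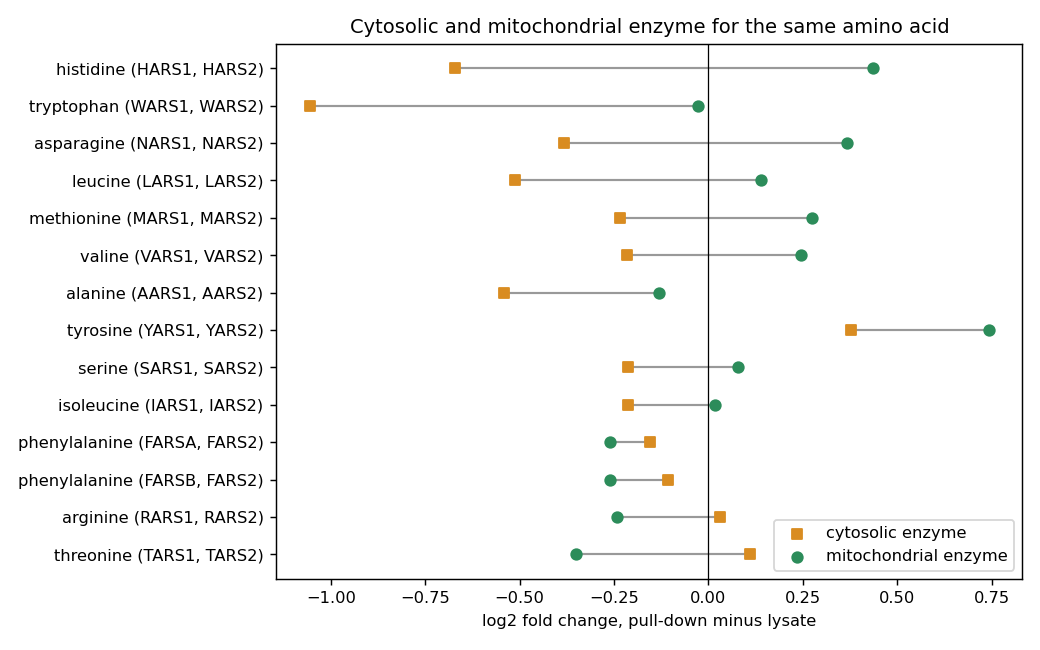
Log2 fold change (x axis, pull-down minus lysate) of the cytosolic (squares) and the mitochondrial enzyme (circles) for the same amino acid, joined by a line, in 14 pairs over 13 amino acids sorted by the difference. Circles lie to the right of squares in 10 pairs and to the left in 4. The differences were widest for histidine (1.11) and tryptophan (1.03). Without pull-down replicate 1 tryptophan (0.99) ranked before histidine (0.95).

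The histidine pair lies side by side in the genome. HARS1 and HARS2 are read in opposite directions from starts 84 bases apart. The stretch between the starts is printed because these neighbours, 1 called lower and 1 with an estimate above 0, share it as promoter sequence. It lies at chr5:140691371-140691454 (RefSeq, GRCh38.p14, plus strand, HARS1 to the left and HARS2 to the right), and the capitals mark the motif CCGGAAGT or its reverse complement ACTTCCGG, which holds the core bound by ETS factors.
HARS1-HARS2: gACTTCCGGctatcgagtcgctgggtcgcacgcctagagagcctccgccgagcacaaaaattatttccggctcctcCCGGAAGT
The motif occurs 2 times, once beside each start, in opposite orientation. It was looked for after the sequence had been seen, and 4.14% of 35116 RefSeq promoter windows of 300 bases (250 before and 50 after each start) hold it on either strand. Windows were found for 33 of the 38 genes, and the motif was in those of 5 of 16 cytosolic genes and 3 of 14 mitochondrial genes. Some genes have several windows, and by window these counts were 5 of 21 and 4 of 18.

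The motif of the amino acid response, written here as TGATGNAA with its reverse complement TTNCATCA, was in the promoter windows of 7 of 16 cytosolic genes (CARS1 and the 6 listed below) and of 1 of 14 mitochondrial genes, YARS2. It is in 3.62% of all windows. Some genes have several windows, and by window it was in 7 of 21 cytosolic and 1 of 18 mitochondrial ones. Counts of genes below stand beside shares of windows in the same way. In the form TGATGCAA (reverse complement TTGCATCA, which is contained in the former) it was in 6 of 16 cytosolic genes, 0 of 14 mitochondrial genes and 0.866% of all windows. The stretches of the measured genes are shown because the motif was in some of the cytosolic windows and in that of YARS2. The motif was not used to choose the genes, and 9 of 16 cytosolic genes had no window with it. The stretches are written in the direction of the gene, in RefSeq GRCh38.p14, with the match in capitals.
AARS1, chr16:70289678-70289701, minus strand: tctcgcagTTGCATCAgccaagtt
IARS1, chr9:92293695-92293718, minus strand: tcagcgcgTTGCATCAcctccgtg
MARS1, chr12:57488056-57488079, plus strand: ggttccggTTGCATCAgcgaggga
NARS1, chr18:57621807-57621830, minus strand: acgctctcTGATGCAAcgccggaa
TARS1, chr5:33440959-33440982, plus strand: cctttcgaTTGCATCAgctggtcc
GARS1, chr7:30594837-30594860, plus strand: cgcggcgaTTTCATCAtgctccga
YARS2, chr12:32756079-32756102, minus strand: cacactgcTGATGGAAaaattaag
Counted from the start of the gene, the match begins at -187 in AARS1 and -197 in YARS2, and between -33 and 14 in the others. The 6 measured cytosolic genes with the motif had a median log2 fold change of -0.31 and the 9 without it one of -0.16, and both groups hold genes called lower (GARS1 with it, HARS1 and WARS1 without it). Of 2 further motifs searched on both strands, CACGTG was in 1 of 16 cytosolic and 3 of 14 mitochondrial genes (7.26% of all windows), and CCAAT (reverse complement ATTGG) in 7 of 16 and 9 of 14 (34.6%). A match describes the letters only. The fold change compares captured RNA with lysate RNA of cells given the same duplex, and does not measure transcription from these promoters.

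Among 16 measured genes of 21 that act beside the synthetases, on the tRNA or on the charged product, 1 was called higher and 1 lower (6.25% each), near the 7.1% and 6.72% of all named genes. Both encode subunits of the exchange factor that reloads the elongation factor EEF1A with GTP. EEF1B2 measured 13.76, 13.94 and 13.88 in the pull-down and 12.78 and 12.52 in the lysate, which is 2.31-fold higher (log2 fold change 1.21 ± 0.13 SE, adjusted p = 0.0103 in limma), and its 4 other probes gave 0.62 to 1.39, 3 of them called. EEF1D, the subunit to which VARS1 binds, measured 10.81, 10.75 and 10.89 against 12.002 and 11.60, which is 1.98-fold lower (-0.99 ± 0.15 SE, adjusted p = 0.018 in limma), and its second probe gave -1.30. EEF1B2 has processed copies in the genome, so its probes may read related transcripts. VARS1 itself measured -0.22 (adjusted p = 0.409 in limma). TRNT1 adds the CCA end that every synthetase needs on its tRNA. It had a log2 fold change of 0.46 by its brighter probe (adjusted p = 0.0764 in limma) and 0.255 by the other. SSB, the La protein that binds new tRNA transcripts, had one of -0.26 (adjusted p = 0.228 in limma).

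Of 15 measured mitochondrial translation factors, 0 were called higher and 1 lower by limma, with 0 higher and 2 lower at an unadjusted p under 0.05. The share called lower was 6.67%, beside 6.72% of all named genes. At the unadjusted threshold, 1525 of 9268 named genes were higher and 1307 lower. TSFM, the exchange factor of the mitochondrial elongation factor that carries charged tRNA to the ribosome, measured 8.32, 8.19 and 8.26 in the pull-down and 9.41 and 9.18 in the lysate (2.05-fold lower, log2 fold change -1.04 ± 0.12 SE, adjusted p = 0.0116 in limma). MRRF, the ribosome recycling factor, measured -0.61 (adjusted p = 0.0927 in limma) and was called lower without pull-down replicate 1 (-0.75, adjusted p = 0.0462 in limma). Its dimmer probes gave -0.36 and -0.34 on all arrays. MTRF1L and MTIF2, for release and initiation, measured 0.42 (adjusted p = 0.341 in limma) and 0.32 (adjusted p = 0.235 in limma). The dimmer probe of MTRF1L gave 0.03. MTRF1L ranged from 0.13 without lysate replicate 1 to 0.71 without lysate replicate 2, and MTIF2 measured 0.20 without pull-down replicate 1. The median of this list was 0.05, and that of the first list 0.12.

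In the amino acid response, 1 of 29 measured genes was called higher and 2 lower (3.45% and 6.9%, beside 7.1% and 6.72% of all named genes), with a median log2 fold change of 0.04. EIF2AK4 encodes GCN2, the kinase whose domain related to histidyl-tRNA synthetase binds uncharged tRNA. It measured 9.36, 9.43 and 9.69 in the pull-down and 10.60 and 10.88 in the lysate (2.38-fold lower, log2 fold change -1.25 ± 0.16 SE, adjusted p = 0.0128 in limma). NUPR1, a stress-induced chromatin protein, was lower at -0.97 (adjusted p = 0.04996 in limma, second probe -0.88). PSPH, the last enzyme of serine synthesis, was higher at 0.45 (adjusted p = 0.0412 in limma), with values of 8.64, 8.67 and 8.63 against 8.21 and 8.18. MTHFD2 and TRIB3 measured 0.61 (adjusted p = 0.0665 in limma) and 0.59 (adjusted p = 0.262 in limma). TRIB3 was highest in pull-down replicate 1 and measured 0.28 without it. ATF4 itself was not called, at -0.01 by its brighter probe, which lies near the top of the scale, and -0.50 (adjusted p = 0.0666 in limma) by the other. Of the 6 genes called in these 3 lists, 5 were still called without pull-down replicate 1, 4 without pull-down replicate 3, 1 (EEF1B2) without pull-down replicate 2 and 0 without either lysate array.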

How the data were processed

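RNA of 3 pull-downs and 2 lysates of LX-2 cells was amplified, labelled and hybridized to Illumina HT-12 chips. The authors exported signals from GenomeStudio and normalized them with lumi, and the deposited values lie on a log2 scale or on the similar scale of the variance-stabilizing transform, under which fold changes of dim probes would be understated. Transform and tool versions were not given in the sources used here. Signals before normalization, planned as a start, sit in 10 per-sample columns whose names match no label, and were left out, so background and detection were not examined. The number of arrays limits the precision.

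Probes (14747) were named by GEO's platform annotation, which gives 1 symbol for 11970, several for 1 and none for 2776; updating through gene IDs in RefSeq (GRCh38.p14) changed 0 symbols. The probe with the highest mean over the 5 arrays stood for a gene. Pull-down and lysate were compared in limma 3.58.1 (R 4.3.3; lmFit, eBayes, two-sided, 95% intervals) over all 5 arrays, with Benjamini-Hochberg adjustment over all probes and a threshold of 0.05; the fit had 3 residual and 2.75 prior degrees of freedom. Tested on simulated data for this comparison with 14747 probes, it found 37 of 100 changes of 1 (log2) and 90 of 100 changes of 2 and made 7 false calls. Only 100 probes of each size were changed there, with independent noise, while 2172 probes were called in the data. These rates may therefore not carry over to the data. Members, lists and tests were chosen with earlier results of these data known. Genes were named by a rule: all members are accounted for, with array values for those called and for the 3 highest and 3 lowest of each set, and of each other list the 2 highest, the 2 lowest and those called; ATF4 was added after its values were seen. Replicates were independent by the methods, and 1 lysate array left out there for low signal was not analysed here. Alternatives were a replicate block, leaving out each array, median scaling, cyclic loess, leaving out the dimmest of 4 bins of probes, the mean of a gene's probes, and a trended robust prior.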

Additional observations from a re-analysis of the deposited data

How the results depend on the processing

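Counts of calls depended on single arrays and on the replicate block. When each array was left out in turn, limma called 0 to 2389 of all probes (2172 on all 5 arrays; 387 without pull-down replicate 2, 912 without pull-down replicate 3, 91 without lysate replicate 2, and 0 without lysate replicate 1, with 2958 at an unadjusted p under 0.05), 0 to 1 synthetase genes higher and 0 to 3 lower. The median log2 fold change ranged from -0.35 (without lysate replicate 2) to -0.19 for the cytosolic and from 0.02 to 0.16 for the mitochondrial genes. Both groups carry replicate numbers 1 and 2. Number 3 occurs only in the pull-down, so a block by replicate number takes up that array, and its estimates equal those without pull-down replicate 3. With the replicate number as a block, limma called 215 probes, 0 synthetase genes higher and 0 lower, with 3398 probes at an unadjusted p under 0.05 and adjusted p-values of 0.0892 (WARS1) to 0.137 (HARS1) for the 4 genes called otherwise; none of the 6 other genes named as called passed. By the methods the control was part of the lysate that went to the beads. The labels do not say whether equal numbers mark the same lysate, and differences between replicates 1 and 2 correlated at -0.168 between the groups across probes.

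Genes near 0 changed sign. KARS1 measured 0.0177 under the replicate block, and cyclic loess gave -0.0028 for TARS1, -0.0799 for RARS1 and -0.0291 for IARS2. Leaving out an array, estimates ranged from -0.0072 to 0.21 for QARS1, -0.0842 to 0.14 for RARS1, -0.0842 to 0.049 for KARS1, -0.29 to 0.0731 for FARSB, -0.0165 to 0.40 for VARS2, -0.10 to 0.29 for CARS2, -0.10 to 0.14 for IARS2 and -0.0888 to 0.0176 for WARS2. Median scaling, cyclic loess, leaving out the dimmest of 4 bins of probes and averaging probes kept the same 4 synthetase calls. With a trended robust prior HARS1 was no longer called (adjusted p = 0.0545 in limma) and TARS2 was (adjusted p = 0.0377 in limma). NUPR1 was not called after median scaling (adjusted p = 0.0503 in limma), nor PSPH without the dimmest bin (adjusted p = 0.0756 in limma), which also left out 5 synthetase genes. The cause of these changes was not tested. Across all probes the median difference was 0.04 on the deposited values, 0.05 with median scaling and 0.00 with cyclic loess. The signals named as a possible start could not be used, since their columns name no sample.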
